A study of Mus musculus with 48 samples.

Results

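The 10 genes described here encode heat shock proteins of the cytosol and of mitochondria, measured by RNA-seq in kidney slices kept alive outside the body. They were chosen by name, as the rows of the raw count table whose Ensembl identifiers carry the symbols Hspa1a, Hspa1b, Hspa8, Hsph1, Dnajb1, Hsp90aa1, Hsp90ab1, Hspb1, Hspd1 and Hspe1. All 10 were found among the 55487 genes of the table. All 10 passed the filter on low counts in every comparison, and no library held fewer than 75 reads of any of them. All mice were male and of the strain C57BL/6J or DBA/2J, the inbred founders of the recombinant BXD lines. The 48 libraries form 16 groups of 3, each strain under 8 conditions. Slices of each strain were cultured as controls for 6 h or 24 h, with tunicamycin for 6 h or 24 h, or with cyclosporin A for 6 h or 24 h. The other 2 conditions concern oxygen: slices held in normoxia stand for ischemia in the labels, and slices moved from normoxia to hyperoxia (normoxia-hyperoxia) stand for reperfusion. Both have a time of 24 h in their titles, and the labels state neither drug doses, the oxygen level of the controls, nor the age of the mice. The labels name no transgene, engineered allele or pooling of animals. The oxygen conditions have no controls of their own name and were compared with the controls of the drug conditions, so the oxygen condition and anything else that set those slices apart cannot be told apart in those comparisons. The labels number the replicates but do not say that each came from a different mouse, so the p-values measure the spread between these libraries, which may be partly technical.

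Heat shock proteins are chaperones that bind unfolded proteins, keep them from aggregating and help them refold. In unstressed cells the transcription factor HSF1 is held inactive by chaperones. When unfolded proteins draw the chaperones away, HSF1 forms trimers, binds repeats of the motif nGAAn called heat shock elements, and switches on the inducible chaperone genes. In kidney, proximal tubule cells have long been studied for the induction of HSP70 and HSP25 (the mouse protein of Hspb1) after ischemia, when both the energy supply and the cytoskeleton of these cells are disturbed. Hspa1a and Hspa1b encode the inducible HSP70, and Hspa8 the form that most cells make constantly. Dnajb1 encodes an HSP40 that passes clients to HSP70 and stimulates its ATPase, and Hsph1 encodes HSP110, which exchanges the nucleotide bound to HSP70. Hsp90aa1 and Hsp90ab1 encode the inducible and the constant form of cytosolic HSP90. Hspb1 encodes a small heat shock protein that holds unfolded clients without using ATP, and Hspd1 and Hspe1 encode the HSP60 ring and its HSP10 lid, which fold proteins inside mitochondria.

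The sequences upstream of the genes are shown first, as a description. Whether heat shock elements in them have a part in the changes that follow was not tested. RefSeq promoter windows of build GRCm38.p6 were matched for 7 of the 10 genes. Hspa8, Hsp90aa1 and Hsp90ab1 were not matched. The 250 bases before each annotated start were searched on both strands for the heat shock element GAANNTTCNNGAA (TTCNNGAANNTTC on the other strand), exactly or with at most 1 mismatch in its 9 fixed letters. An exact match was present in 0.466% of the 32851 windows of the whole RefSeq table, and a match with at most 1 mismatch in 6.08%. The 3 windows below belong to the inducible HSP70 pair and to the small heat shock protein gene, whose levels spanned the widest range over the 16 groups. They are written 5′ to 3′ on the strand of the gene, and capitals mark the bases of a match with 1 mismatch. The windows are chr17:34972157-34972406 on the minus strand for Hspa1a, chr17:34959239-34959488 on the minus strand for Hspa1b, and chr5:135887669-135887918 on the plus strand for Hspb1.
Hspa1a: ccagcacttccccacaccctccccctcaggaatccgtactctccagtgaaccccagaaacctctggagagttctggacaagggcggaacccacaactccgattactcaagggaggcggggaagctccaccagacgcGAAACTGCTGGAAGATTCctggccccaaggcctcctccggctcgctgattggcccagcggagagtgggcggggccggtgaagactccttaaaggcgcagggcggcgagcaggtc
Hspa1b: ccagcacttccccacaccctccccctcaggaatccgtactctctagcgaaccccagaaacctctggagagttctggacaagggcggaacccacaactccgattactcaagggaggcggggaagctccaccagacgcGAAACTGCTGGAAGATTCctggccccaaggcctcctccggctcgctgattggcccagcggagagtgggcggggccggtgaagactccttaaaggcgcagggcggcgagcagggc
Hspb1: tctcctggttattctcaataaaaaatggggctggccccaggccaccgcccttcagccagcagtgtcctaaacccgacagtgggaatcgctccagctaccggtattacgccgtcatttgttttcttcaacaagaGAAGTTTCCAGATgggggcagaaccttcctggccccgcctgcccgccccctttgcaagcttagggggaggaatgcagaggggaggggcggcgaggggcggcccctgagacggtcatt
The windows of Hspa1a and Hspa1b differed at 3 of 250 bases, and both held the same pair of overlapping matches, which began 114 and 109 bases before the start. The match of Hspb1 began 117 bases before the start.

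Short stretches of Hsph1 and Hspe1 are shown because their matches overlap into longer runs of the repeat. Each has 6 flanking bases in lower case on either side. They lie at chr5:149636346-149636375 on the minus strand and chr1:55088053-55088082 on the plus strand.
Hsph1: gaatctTTCTCGAAGGCTCGAGAAgaagga
Hspe1: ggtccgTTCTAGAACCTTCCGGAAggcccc
The run in Hspe1 held the exact motif on both of its overlapping matches. Hspd1 and Hspe1 are neighbours that are transcribed away from each other, and 1 of the 2 RefSeq windows of Hspd1 contains the same 18 bases read from the other strand. The other window of Hspd1 and both windows of Dnajb1 held no match, which says only that these letters are not in those windows. In total, 6 of the 7 genes with a window held a match with at most 1 mismatch, and 2 of them an exact match, beside 6.86% and 0.514% of the 27025 genes of the table. The exact matches of Hspd1 and Hspe1 are the same 18 bases, and the windows of Hspa1a and Hspa1b are near copies. These counts are therefore not of separate elements. These matches describe letters in the reference genome of C57BL/6J, and the alleles of DBA/2J were not analysed here.

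Identity between the members limits some of the values. Hspa1a (chromosome 17, bases 34969190 to 34972156, minus strand) and Hspa1b (chromosome 17, bases 34956436 to 34959238, minus strand) are neighbouring genes in GRCm38 with the GENCODE M21 annotation. Their reading frames were 99.4% identical, and 47.1% of all 100-base stretches of the Hspa1a transcript occurred letter for letter in that of Hspa1b. Reads from such stretches cannot be assigned to either gene by sequence, so the split between the pair is uncertain, and so is any call made for 1 of them and not the other. Values of the summed pair are therefore given as well. No 100-base stretch was shared between Hspa1a and Hspa8, whose reading frames were 73.9% identical, or between Hsp90aa1 and Hsp90ab1, at 75.4%. An exon of an annotated antisense gene overlaps Hspa1a, and Hspd1 and Hspe1 overlap head to head. The strand setting of the counting is not given in the sources used here, so reads of such overlaps may have been shared or dropped.

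The libraries held 5619309 to 25137581 counts (median 19607361), and the shallowest was replicate 2 of DBA/2J under normoxia-hyperoxia. Levels are given as CPM (counts-per-million), the count of a gene scaled to the total of its library. Differences are log2 fold changes from edgeR, averaged over the strains unless stated, and an adjusted p is from its quasi-likelihood F test with Benjamini-Hochberg adjustment over all genes tested. A gene was called at an adjusted p under 0.05. The markers examined for tubule, glomerular, vascular, stromal and white blood cells were all detected in every group. The summed level of 5 proximal tubule markers (Lrp2, Cubn, Slc34a1, Slc5a2 and Slc22a6) moved widely with the conditions. In C57BL/6J it ran from 2129.6 to 4415.5 CPM in 6 h controls, 333.9 to 529.3 in 24 h controls, 4069.5 to 6631.4 under normoxia and 116.7 to 171.6 under normoxia-hyperoxia. In DBA/2J slices the ranges were 5426.6 to 6322.3, 815.5 to 1803.0, 11021.8 to 12597.8 and 532.1 to 770.8 CPM. All 5 markers had lower mean levels under normoxia-hyperoxia than under normoxia in both strains. The summed levels of the distal convoluted tubule, collecting duct, podocyte, endothelial and leukocyte markers were higher under normoxia-hyperoxia without overlap in both strains, although single markers were not, such as Aqp2 and Ptprc with lower means in C57BL/6J. The median sum went from 2309.2 to 5387.5 CPM in C57BL/6J and 1819.9 to 6094.6 CPM in DBA/2J for the distal convoluted tubule, and from 272.1 to 624.0 and 189.4 to 597.2 CPM for podocytes. For leukocytes it went from 82.7 to 117.3 CPM in C57BL/6J libraries and from 59.4 to 205.4 CPM in DBA/2J libraries. In C57BL/6J most of that difference was in Cd68, at 8.96 and 39.7 CPM on average, while Ptprc went from 26.04 to 22.7 CPM. The loop of Henle and fibroblast sums overlapped in C57BL/6J and were higher without overlap in DBA/2J. In C57BL/6J the median sum of the distal convoluted tubule markers was 3500.8 CPM in 6 h controls and 779.2 CPM in 24 h controls, and that of the loop of Henle markers 8266.0 and 3348.1 CPM. The share of mitochondrial genome genes was 15.4% and 6.83% in the same groups, and 8.16% and 3.52% in DBA/2J. The part of these shifts in the changes below was not tested, apart from fits that left out the mitochondrial genome genes. In these bulk samples fewer cells of a type and less RNA per cell cannot be told apart.

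**Figure D1:**
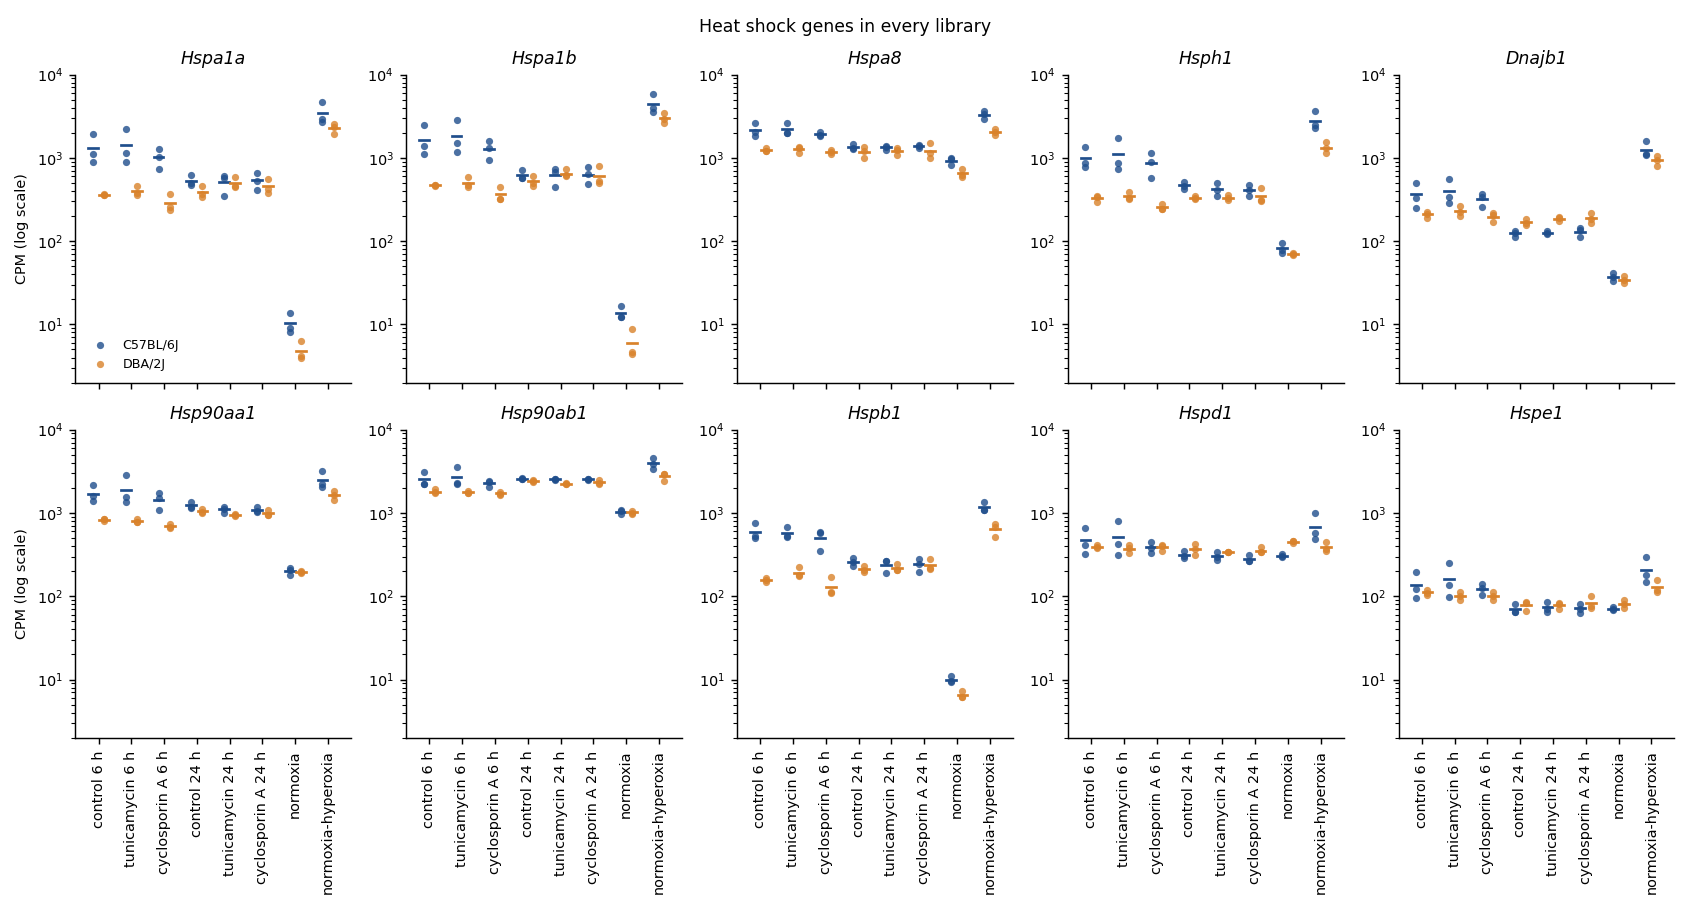
Level of each heat shock gene in each of the 48 libraries, in CPM on a log scale, by condition, with C57BL/6J in blue and DBA/2J in orange. Points are libraries and short lines are means of 3; Hspa1a, Hspa1b and Hspb1 span the widest range, lowest under normoxia and highest under normoxia-hyperoxia, while Hspd1 and Hspe1 span the narrowest.

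Together the 10 genes took between 0.243% and 2.97% of a library's counts. Their mean share was 0.269% in C57BL/6J and 0.252% in DBA/2J under normoxia, and 2.38% and 1.51% under normoxia-hyperoxia. In 24 h controls it was 0.754% and 0.670%, and in 6 h controls 1.19% and 0.590%. Replicate 1 of C57BL/6J had the highest share of its group in 7 of the 8 conditions, all but normoxia. The gap was widest in the 6 h controls, at 1.58% against 0.940% and 1.06%, under tunicamycin at 6 h, at 1.81% against 0.953% and 1.075%, and under normoxia-hyperoxia, at 2.97% against 2.02% and 2.13%.

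**Figure D2:**
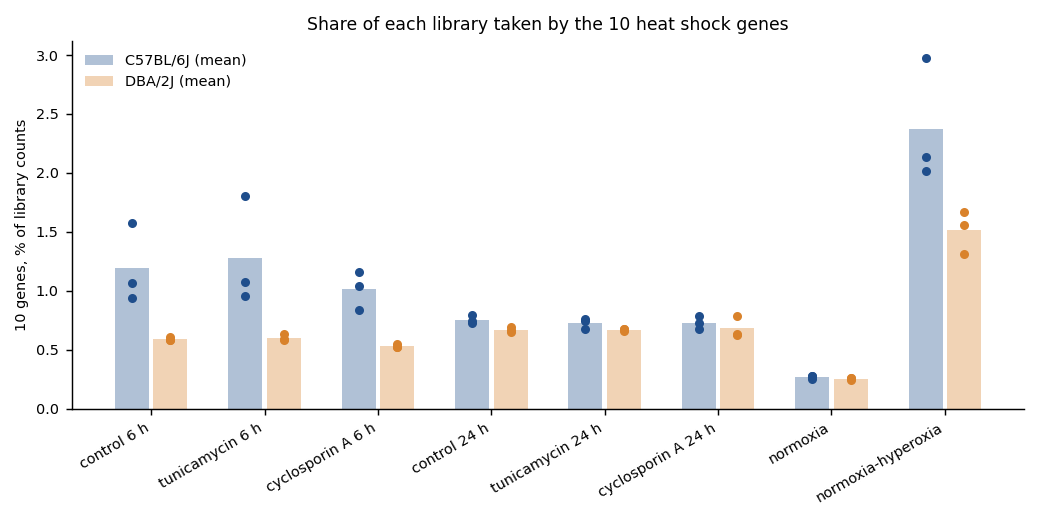
Percent of each library's counts that fell on the 10 heat shock genes, with bars for the mean of 3 libraries and points for libraries. The normoxia groups lie at 0.252% and 0.269% on average, below every other group, and the normoxia-hyperoxia groups at 1.51% and 2.38%, above every other group.

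Which gene led the set depended on the condition. Compared per length, as CPM per kilobase of exon, Hsp90ab1 was the highest of the 10 in C57BL/6J 24 h controls at 857.3, followed by Hsp90aa1 at 314.1 and Hspa8 at 313.8. Dnajb1 was the lowest there at 38.7. Under normoxia Hsp90ab1 still led at 344.7 CPM per kilobase, Hspa8 came next at 215.6 and Hspd1 next at 115.8. The inducible HSP70 genes had dropped to the bottom of that order, with Hspa1b at 4.90 and Hspa1a at 3.46 CPM per kilobase. Under normoxia-hyperoxia Hspa1b led at 1596.5 CPM per kilobase, ahead of Hsp90ab1 at 1312.5, Hspa1a at 1160.2 and Hspb1 at 1141.6, and Hspe1 was the lowest at 141.6. In DBA/2J the same 3 genes stood lowest under normoxia, with Hspb1 at 6.33, Hspa1b at 2.14 and Hspa1a at 1.62 CPM per kilobase.

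The highest group mean was that of C57BL/6J under normoxia-hyperoxia for all 10 genes. The lowest was DBA/2J under normoxia for 8 of them. The highest mean lay 718 times above the lowest for Hspa1a, 747 times for Hspa1b and 180 times for Hspb1. It lay 40.1 times above for Hsph1, 36.3 times for Dnajb1 and 12.7 times for Hsp90aa1. The range was 5.03-fold for Hspa8, 3.87-fold for Hsp90ab1, 2.98-fold for Hspe1 and 2.41-fold for Hspd1. When the 16 groups were ranked by their means, most neighbours in the order overlapped. Of the 15 neighbouring pairs, the libraries lay apart in 5 for Hspa1b and Hspb1, 4 for Hspa1a, Hspa8, Hsph1 and Dnajb1, 3 for both HSP90 genes, 1 for Hspd1 and 0 for Hspe1.

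The first comparison asks how slices under normoxia followed by hyperoxia differed from slices under normoxia alone. All 10 genes were higher after hyperoxia, against 37% of the 17228 genes tested that were called higher. The 2 conditions did not overlap in either strain for 9 of the 10 genes, against 28.4% of genes. The median log2 fold change of the 10 was 3.91, beside 0.02 for all genes tested.

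The inducible HSP70 genes were the lowest of the 10 per length under normoxia and among the highest after hyperoxia. Hspa1a was at 8.09, 13.7 and 8.98 CPM in C57BL/6J and at 4.18, 3.91 and 6.31 CPM in DBA/2J under normoxia. Under normoxia-hyperoxia it was at 4654.5, 2719.7 and 2952.5 CPM in C57BL/6J and at 1911.6, 2557.6 and 2318.2 CPM in DBA/2J. Every hyperoxia library lay far above every normoxia library, and the C57BL/6J libraries lay above those of DBA/2J. The log2 fold change of Hspa1a was 8.54 ± 0.22 (SE), a 373-fold difference with an edgeR adjusted p of 1.52e-12. Hspa1b, at 4.42 to 16.8 CPM under normoxia and 2591.3 to 5912.0 CPM after hyperoxia, differed by 8.57 ± 0.23 (edgeR adjusted p = 2.11e-12). The sum of the pair was at 20.3 to 30.6 CPM in C57BL/6J and 8.55 to 15.2 CPM in DBA/2J libraries under normoxia, and its log2 fold change was 8.56 ± 0.23 (edgeR adjusted p = 1.09e-12).

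The small heat shock protein gene Hspb1 followed the same course. It was at 9.40, 11.04 and 9.54 CPM in C57BL/6J and 6.14, 6.20 and 7.23 CPM in DBA/2J under normoxia. It was at 1341.3, 1093.0 and 1096.6 CPM in C57BL/6J and 509.8, 741.4 and 682.2 CPM in DBA/2J after hyperoxia. The groups did not overlap, between conditions or between strains. The log2 fold change was 6.66 ± 0.12 (edgeR adjusted p = 2.9e-15).

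Both partners of HSP70 rose as well. Dnajb1, the HSP40 gene, was at 33.4, 41.3 and 36.8 CPM in C57BL/6J and 31.8, 34.2 and 37.8 CPM in DBA/2J under normoxia. After hyperoxia it was at 1582.5, 1112.4 and 1075.4 CPM and at 797.8, 952.4 and 1045.8 CPM. Hyperoxia libraries all lay above normoxia libraries, and the strains overlapped under normoxia only. Its log2 fold change was 4.83 ± 0.12 (edgeR adjusted p = 6.2e-14). Hsph1, the HSP110 gene, was at 71.5, 95.9 and 79.1 CPM in C57BL/6J and 70.3, 67.6 and 72.0 CPM in DBA/2J under normoxia. After hyperoxia it was at 3635.1, 2265.8 and 2505.5 CPM and at 1137.0, 1532.4 and 1311.5 CPM. The strains shared a range under normoxia and lay apart after hyperoxia. The log2 fold change of Hsph1 was 4.58 ± 0.13 (edgeR adjusted p = 3.01e-13).

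The HSP90 pair and the constant HSP70 gene started from high levels and rose less. Hsp90aa1, the inducible HSP90 gene, was at 204, 218.1 and 182.3 CPM in C57BL/6J and 187.8, 197.5 and 202.9 CPM in DBA/2J under normoxia. After hyperoxia it was at 3156.4, 2046.4 and 2251.2 CPM and at 1436.2, 1811.1 and 1624.0 CPM. No library of one condition reached the range of the other, and replicate 1 of C57BL/6J was the highest. Its log2 fold change was 3.25 ± 0.11 (edgeR adjusted p = 1.31e-12). Hsp90ab1, the constant HSP90 gene, went from 976.4 to 1078.6 CPM over the 6 normoxia libraries to 2391.8 to 4564.4 CPM over the 6 hyperoxia libraries. Its log2 fold change was 1.59 ± 0.09 (edgeR adjusted p = 2.98e-10). Hspa8, the constant HSP70 gene, went from 585.1 to 995.5 CPM to 1885.2 to 3599.6 CPM, with a log2 fold change of 1.65 ± 0.10 (edgeR adjusted p = 4.82e-10).

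The mitochondrial pair rose least, and not alike in the strains. Hspd1, the HSP60 gene, was at 322.7, 294.5 and 301 CPM in C57BL/6J and 464.1, 441 and 457.4 CPM in DBA/2J under normoxia. After hyperoxia it was at 986.3, 481.6 and 570.5 CPM in C57BL/6J and 349.8, 444 and 364.9 CPM in DBA/2J. The C57BL/6J libraries were all higher after hyperoxia, while those of DBA/2J overlapped, with a mean after hyperoxia 0.850 times that under normoxia. The log2 fold change over both strains was 0.37 ± 0.14 (edgeR adjusted p = 0.0362). This call was lost in 9 of 20 alternatives, with adjusted p up to 0.0994. They were the fits without replicate 2 or 3 of C57BL/6J or any replicate of DBA/2J under normoxia, and without replicate 1 of C57BL/6J or any DBA/2J library under normoxia-hyperoxia. Over all 12 such fits the log2 fold change ran from 0.16 to 0.46. Hspe1, the HSP10 gene, was at 68.9 to 89.0 CPM under normoxia and 111.7 to 298.7 CPM after hyperoxia, with a log2 fold change of 1.02 ± 0.16 (edgeR adjusted p = 0.000103).

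The rise also differed between the strains for 5 of the 10 genes, each smaller in DBA/2J, against 11% of genes called lower in this interaction. The largest of these differences was that of Hspd1, a log2 of -1.55 ± 0.29 between the strains' effects (DBA/2J minus C57BL/6J, edgeR adjusted p = 0.00386). Hsph1 differed by -1.02 ± 0.23 (edgeR adjusted p = 0.00777). Hspe1 differed by -1.04 ± 0.31, Hsp90aa1 by -0.74 ± 0.20 and Hsp90ab1 by -0.66 ± 0.18, with edgeR adjusted p of 0.0409, 0.0204 and 0.0187. For Hspa1a and Hspa1b, which rose most, the differences were 0.31 and 0.45, with edgeR adjusted p of 0.586 and 0.419 and intervals of 2 SE that reached from -0.39 to 1.01 and from -0.26 to 1.17. With library totals in place of TMM factors, or with all 48 libraries in 1 fit, 2 of the 5 calls were made, and 3 without replicate 1 of either strain under normoxia-hyperoxia or without replicate 3 of C57BL/6J under normoxia. The call of Hspe1 was also lost without replicate 1 or 2 of C57BL/6J or replicate 1 or 2 of DBA/2J under normoxia, or without replicate 3 of DBA/2J under normoxia-hyperoxia.

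**Figure D3:**
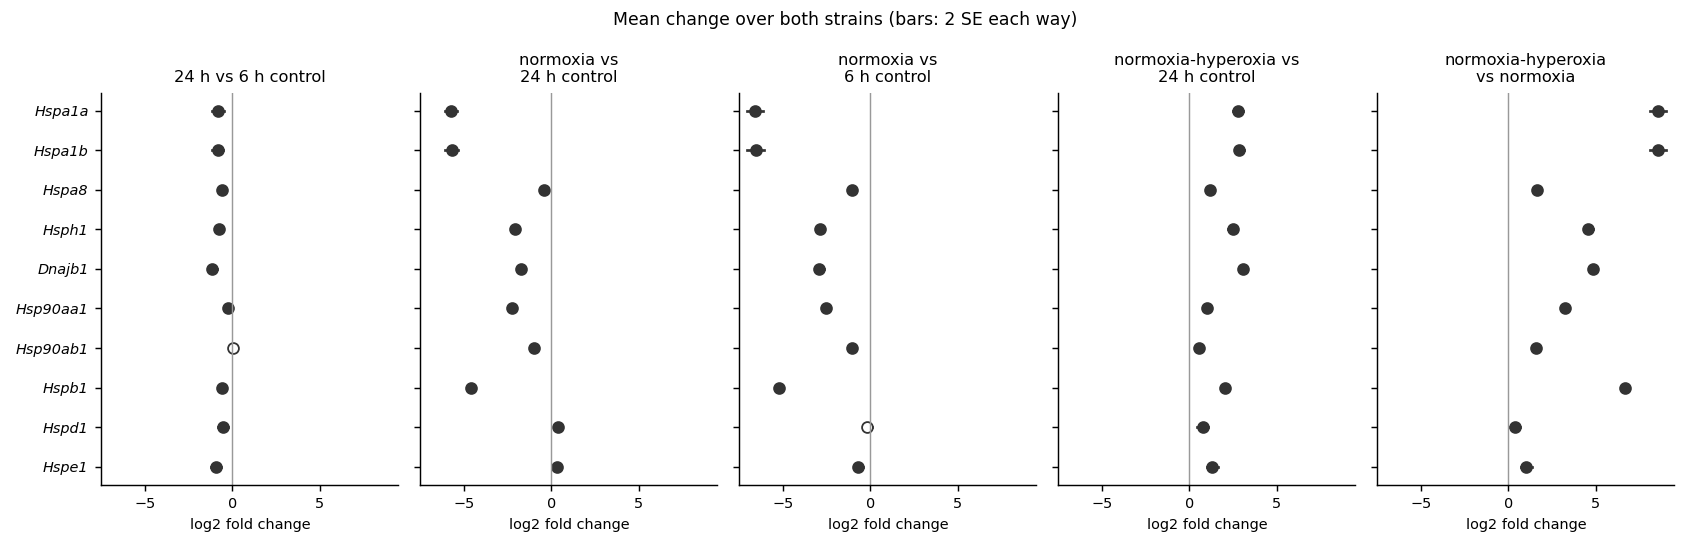
Log2 fold change of each gene, averaged over the strains, in 5 comparisons, with bars of 2 SE on either side and filled points for an edgeR adjusted p under 0.05. Hspa1a and Hspa1b have the widest values, -5.73 and -5.69 for normoxia against 24 h controls and 8.54 and 8.57 for normoxia-hyperoxia against normoxia. The open points are Hsp90ab1 for 24 h against 6 h controls and Hspd1 for normoxia against 6 h controls.

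The next comparison asks how normoxia differed from culture as a control for 24 h. Of the 10 genes, 8 were lower, against 39.7% of the 17375 genes tested, and 2 were higher, against 42.4%. The libraries of the conditions did not overlap in either strain for those 8 lower genes, against 39.9% of genes. The median log2 fold change of the 10 was -1.92, beside 0.05 for all genes. Library totals in place of TMM factors shifted the median of all genes by -0.27 and moved the share of higher calls from 51.6% to 41.5%.

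The inducible HSP70 pair and Hspb1 fell most. Hspa1a was at 620.6, 470.8 and 500.9 CPM in C57BL/6J and 335.6, 454 and 364.4 CPM in DBA/2J controls at 24 h, all far above the normoxia libraries given above. Its log2 fold change under normoxia was -5.73 ± 0.17 (edgeR adjusted p = 1.77e-11), that of Hspa1b was -5.69 ± 0.18 (edgeR adjusted p = 5.12e-11), and that of their sum was -5.71 ± 0.18 (edgeR adjusted p = 3.66e-11). Hspb1 was at 291, 233.8 and 254.8 CPM in C57BL/6J and 194.1, 209.4 and 229.4 CPM in DBA/2J controls, and fell by 4.58 on the log2 scale (SE 0.08, edgeR adjusted p = 2.09e-16).

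Partners and HSP90 fell by less. Hsph1 was at 515.7, 427.9 and 455.3 CPM in C57BL/6J and 325.4, 343.6 and 316.6 CPM in DBA/2J controls and fell by 2.10 on the log2 scale (edgeR adjusted p = 3.58e-13). Dnajb1 was at 133.6, 124.3 and 113.6 CPM and at 157.1, 162.9 and 184.2 CPM, and fell by 1.74 (edgeR adjusted p = 1.36e-12). For both genes every control library of a strain lay above every normoxia library of that strain. Hsp90aa1, at 989.7 to 1366.8 CPM over the 6 controls, fell by 2.25 (edgeR adjusted p = 9.49e-14). Hsp90ab1, at 2325.0 to 2632.3 CPM in controls, fell by 1.00 (edgeR adjusted p = 1.79e-10), and Hspa8, at 994.4 to 1457.2 CPM, fell by 0.43 (edgeR adjusted p = 0.000397).

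The mitochondrial pair went the other way by a small amount. Hspd1 was at 347.8, 289.3 and 306.3 CPM in C57BL/6J and 424.6, 316.5 and 364.9 CPM in DBA/2J controls, with a log2 fold change of 0.40 ± 0.07 under normoxia (edgeR adjusted p = 0.000105). Hspe1, at 64.7 to 85.1 CPM in controls, had a log2 fold change of 0.31 ± 0.08 (edgeR adjusted p = 0.00282). The libraries of both genes overlapped in C57BL/6J, and those of Hspe1 in DBA/2J as well. The mean CPM of Hspd1 was 0.973 times that of controls in C57BL/6J and 1.23 times in DBA/2J. The mean CPM of Hspe1 was 1.02 times that of controls in both strains. Both calls were lost with library totals in place of TMM factors, where the values were 0.13 and 0.03, and that of Hspe1 also in the fit of all 48 libraries. Genes of the mitochondrial genome took 23.9% ± 1.55 of counts in C57BL/6J and 12.3% ± 0.534 in DBA/2J under normoxia. In these controls they took 6.83% ± 0.970 and 3.52% ± 0.116 (SD, n = 3). Both calls were kept in the fit that left these genes out. Any other part of their share in these values was not tested.

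The strains differed in this effect for 2 of the 10 genes. Dnajb1 fell further in DBA/2J, by -0.43 ± 0.13 relative to C57BL/6J (edgeR adjusted p = 0.039, against 6.88% of genes called lower). Hspd1 had the more positive effect in DBA/2J, by 0.45 ± 0.15 (edgeR adjusted p = 0.0471, against 10.1% of genes called higher). The count was 0 in the fit of all 48 libraries and in the fits without replicate 3 of C57BL/6J or replicate 1 or 2 of DBA/2J under normoxia, so neither call held in all settings. It was 1 without any 1 of the 24 h controls other than replicate 1 of DBA/2J, and neither of the 2 calls was kept without replicate 2 of C57BL/6J under normoxia.

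Against the 6 h controls, which differ from normoxia in time as well, 9 of the 10 genes were lower, beside 32.9% of the 16819 genes tested, and 0 were higher, beside 32.9% as well. The libraries did not overlap in either strain for 9 genes as well, against 24% of genes. Hspa1a fell by 6.60, Hspa1b by 6.57 and Hspb1 by 5.22 on the log2 scale, with edgeR adjusted p of 1.58e-10, 5.02e-10 and 4.61e-14. Dnajb1 fell by 2.93, Hsph1 by 2.89 and Hsp90aa1 by 2.57, with edgeR adjusted p of 5.91e-10, 5.52e-11 and 1.9e-11. Hspa8 fell by 1.05, Hsp90ab1 by 1.04 and Hspe1 by 0.69, with edgeR adjusted p of 3.44e-07, 1.2e-07 and 0.000498. Hspd1 was the exception at -0.18 ± 0.12 (edgeR adjusted p = 0.209), with C57BL/6J libraries all lower and DBA/2J libraries all higher under normoxia than in the 6 h controls. Without replicate 2 of the C57BL/6J 6 h controls Hspd1 was called, at an edgeR adjusted p of 0.034. The effects of the strains differed for Hsph1 by 1.56 ± 0.23, Hspb1 by 1.49 ± 0.20, Hsp90aa1 by 1.18 ± 0.19 and Hspd1 by 0.99 ± 0.25, each less negative or more positive in DBA/2J. These 4 calls, with edgeR adjusted p of 0.00362, 0.00334, 0.00489 and 0.0427, stand against 1.86% of genes called higher. That of Hspd1 was lost in 12 of 20 alternatives: with library totals, in the fit of all 48 libraries, and without any 1 of the 12 libraries other than replicate 1 or 2 of the C57BL/6J 6 h controls. The other 3 were kept in all 20.

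Compared with the 24 h controls, all 10 genes were higher under normoxia-hyperoxia, against 34.1% of the 17256 genes tested, and 8 did not overlap in either strain, against 17.8% of genes. Their median log2 fold change was 1.69, beside 0.00 for all genes. Library totals shifted the median of all genes by -0.17 and moved the share of higher calls from 50% to 39%, and all 10 genes were still called higher. Dnajb1 rose most, from the control levels given above, by 3.08 ± 0.11 (edgeR adjusted p = 2.73e-11). Hspa1b rose by 2.86 ± 0.14, Hspa1a by 2.79 ± 0.15, Hsph1 by 2.47 ± 0.12 and Hspb1 by 2.06 ± 0.10, with edgeR adjusted p of 3.77e-10, 2.1e-09, 2.24e-10 and 1.9e-10. The remaining genes rose by less, Hspe1 by 1.31, Hspa8 by 1.21, Hsp90aa1 by 0.98, Hspd1 by 0.76 and Hsp90ab1 by 0.58. Their edgeR adjusted p ran from 2.05e-08 for Hspa8 to 0.00128 for Hspd1. The 2 genes with overlap were Hsp90ab1 and Hspd1, and in both it was the DBA/2J libraries that overlapped. In C57BL/6J the mean CPM after hyperoxia was 10.1 times that of controls for Dnajb1 and 2.16 times for Hspd1, and in DBA/2J 5.54 and 1.05 times. The strains' effects differed for 1 gene, Dnajb1, by -0.92 ± 0.21 (edgeR adjusted p = 0.0419, against 0.481% of genes called lower). That call was lost in 9 of 20 alternatives, namely the fit of all 48 libraries and the fits without any 1 of the 24 h controls other than replicate 2 of DBA/2J, without replicate 1 of C57BL/6J or without replicate 1 or 2 of DBA/2J under normoxia-hyperoxia. Over the 12 fits that left out 1 library the log2 difference ran from -1.04 to -0.72.

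Time in culture was compared between the control slices at 24 h and at 6 h. Averaged over the strains, 9 of the 10 genes were lower at 24 h, against 37.4% of the 16962 genes tested, and 2 genes, Dnajb1 and Hspe1, were lower without overlap in both strains, against 20.6% of genes. The averages join strains that differed. In C57BL/6J Hspa1a went from 1956.3, 901.9 and 1116.6 CPM at 6 h to 620.6, 470.8 and 500.9 CPM at 24 h. In DBA/2J it was at 366.3, 362.1 and 358.9 CPM at 6 h and at 335.6, 454 and 364.4 CPM at 24 h. The C57BL/6J libraries were all lower at 24 h, while those of DBA/2J overlapped. Hspb1 went from 759.4, 503.5 and 524.7 CPM to 291, 233.8 and 254.8 CPM in C57BL/6J, and from 148, 156.8 and 166.7 CPM to 194.1, 209.4 and 229.4 CPM in DBA/2J, so that its libraries moved in opposite directions without overlap. Hsp90aa1 did the same. Its C57BL/6J libraries lay at 1401.0 to 2144.1 CPM at 6 h and 1150.9 to 1366.8 CPM at 24 h, and its DBA/2J libraries at 791.4 to 853.9 and then 989.7 to 1129.1 CPM.

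The largest average decrease with time was that of Dnajb1, at -1.15 ± 0.13 (edgeR adjusted p = 4.04e-06), followed by Hspe1 at -0.95 ± 0.15 (edgeR adjusted p = 9.65e-05). Hspa1b fell by 0.84, Hspa1a by 0.83 and Hsph1 by 0.75 on the log2 scale, with edgeR adjusted p of 0.000502, 0.000479 and 2.14e-05. Hspb1 fell by 0.60, Hspa8 by 0.58, Hspd1 by 0.54 and Hsp90aa1 by 0.28, with edgeR adjusted p of 6.64e-05, 9.55e-05, 0.00377 and 0.0181. Hsp90ab1 was at 0.01 ± 0.09 (edgeR adjusted p = 0.948), with an interval of 2 SE from -0.17 to 0.18. Library totals shifted the median of all genes by 0.21 and moved the share of higher calls from 48.1% to 60.4%. Under those totals Hsp90ab1 was higher at 0.22 (edgeR adjusted p = 0.0304), and Hsp90aa1 and Hspd1 were no longer called, as was Hsp90aa1 in the fit of all 48 libraries.

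The strains differed in the effect of time for 5 of the 10 genes, against 0.419% of genes called higher in DBA/2J relative to C57BL/6J. Hspb1 differed by 1.73 ± 0.20 (edgeR adjusted p = 0.000599) and was called in all 20 alternatives. Hspa1b differed by 1.68 ± 0.33, Dnajb1 by 1.34 ± 0.26, Hsph1 by 1.22 ± 0.22 and Hsp90aa1 by 0.92 ± 0.19, with edgeR adjusted p of 0.043, 0.0412, 0.0181 and 0.0437. The near copy Hspa1a differed by 1.51 ± 0.32 and missed the threshold at an edgeR adjusted p of 0.0587, and their sum differed by 1.60 ± 0.32 (edgeR adjusted p = 0.0439). The count was 6 without replicate 1 or 2 of the C57BL/6J 6 h controls, and 2 without replicate 3 of that group, replicate 1 of the C57BL/6J 24 h controls or replicate 1 or 3 of the DBA/2J 24 h controls. It was 3 without replicate 2 of the DBA/2J 24 h controls, and 1 without any of the DBA/2J 6 h controls or replicate 2 or 3 of the C57BL/6J 24 h controls.

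The strains were also compared within each condition. In the 6 h controls 8 of the 10 genes were lower in DBA/2J, against 12.7% of genes. Hspb1 was lower by 2.07 ± 0.14 on the log2 scale, a 4.19-fold difference (edgeR adjusted p = 1.39e-07), at the CPM given above without overlap. Hspa1a was lower by 4.03-fold, Hspa1b by 3.87-fold and Hsph1 by 3.39-fold, with edgeR adjusted p of 6.61e-05, 9.57e-05 and 2.23e-06. Hsp90aa1 was lower by 2.27-fold, Hspa8 by 1.93-fold, Dnajb1 by 1.91-fold and Hsp90ab1 by 1.55-fold, with edgeR adjusted p from 2.57e-05 to 0.00275. Hspd1 and Hspe1, at -0.39 and -0.45, did not pass (edgeR adjusted p = 0.18 and 0.135), although both were called when replicate 2 of the C57BL/6J controls was left out and the count became 10. Without replicate 1 of the C57BL/6J controls, the library with the highest share, the count stayed at 8. With the pair summed and counted once it was 7, and the sum was lower by 3.94-fold (edgeR adjusted p = 6.71e-05).

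At 24 h Hsph1 alone was lower in DBA/2J, by 1.45-fold (edgeR adjusted p = 0.0225, against 8.27% of genes). The call was lost without replicate 1 of the C57BL/6J 24 h controls, without replicate 1 or 3 of the DBA/2J 24 h controls and in the fit of all 48 libraries, and 5 genes were called without replicate 1 of the C57BL/6J 6 h controls. The other 9 lay between -0.50 for Hspa1a and 0.41 for Dnajb1. Under normoxia 4 genes were lower in DBA/2J, against 18.5% of genes, and Hspd1 was higher, against 28.3%. Hspa1b was lower by 2.17-fold, Hspa1a by 2.02-fold, Hspb1 by 1.45-fold and Hspa8 by 1.35-fold, with edgeR adjusted p of 0.00493, 0.00858, 0.00952 and 0.0159. Hspd1 was higher by 1.56-fold (edgeR adjusted p = 0.0218), and 3 genes in place of 5 were called when replicate 2 of C57BL/6J under normoxia was left out. The call of Hspa8 was also lost without replicate 1 of C57BL/6J or replicate 2 or 3 of DBA/2J, and that of Hspd1 without replicate 3 of C57BL/6J or replicate 1 of DBA/2J.

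Under normoxia-hyperoxia 9 of the 10 genes were lower in DBA/2J, against 11.3% of genes. Hsph1 was lower by 2.26-fold, Hspb1 by 1.96-fold and Hspd1 by 1.88-fold, with edgeR adjusted p of 9.95e-05, 6.29e-05 and 0.00628. Hspe1, Hspa8, Hsp90aa1, Hspa1a, Hsp90ab1 and Dnajb1 were lower by 1.74-, 1.72-, 1.64-, 1.63-, 1.53- and 1.44-fold, with edgeR adjusted p from 0.0006 to 0.035. Hspa1b missed the threshold at 1.59-fold (edgeR adjusted p = 0.0519), and the sum of the pair was lower by 1.61-fold (edgeR adjusted p = 0.0478). The count was 6 without replicate 1 of DBA/2J, 7 without replicate 1 of C57BL/6J or replicate 3 of DBA/2J, and 8 without the shallow replicate 2 of DBA/2J. The calls lost were those of Hspa1a in all 4 of these fits, Dnajb1 without replicate 1 of either strain, and Hspe1 without replicate 1 or 3 of DBA/2J. The summed proximal tubule markers given above were higher in DBA/2J than in C57BL/6J in each of these 4 conditions. The loop of Henle markers had lower median sums in DBA/2J in all 4. With C57BL/6J first, they were 8266.0 against 4464.2 CPM in 6 h controls and 3348.1 against 2424.4 CPM in 24 h controls. They were 11847.0 against 2494.8 CPM under normoxia and 9682.1 against 7195.5 CPM under normoxia-hyperoxia. Libraries of the strains overlapped in these sums in the 24 h controls and under normoxia-hyperoxia. The mean share of mitochondrial genome genes was 15.4% in C57BL/6J against 8.16% in DBA/2J in 6 h controls, 6.83% against 3.52% in 24 h controls, 23.9% against 12.3% under normoxia and 14.1% ± 2.32 against 13.7% ± 3.30 (SD, n = 3) under normoxia-hyperoxia. In fits that left out the mitochondrial genome genes the counts of calls in these 4 conditions stayed the same. Any other part of these values in the strain differences was not tested.

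**Figure D4:**
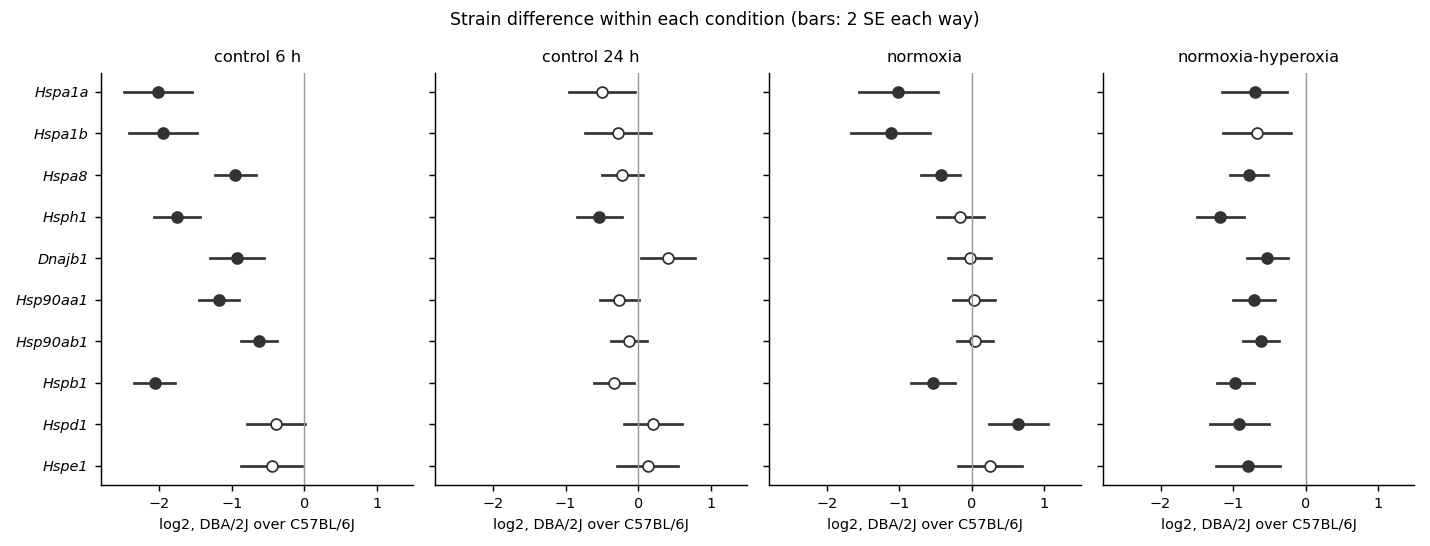
Log2 difference of DBA/2J over C57BL/6J for each gene within 4 conditions, with bars of 2 SE on either side and filled points for an edgeR adjusted p under 0.05. Filled points number 8 in the 6 h controls, 1 in the 24 h controls, 5 under normoxia and 9 under normoxia-hyperoxia, and Hspd1 under normoxia is the 1 filled point to the right of 0.

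Neither drug gave a call among the 10 genes. Tunicamycin blocks N-glycosylation, which loads the endoplasmic reticulum with unfolded proteins, and cyclosporin A is an immunosuppressant that inhibits calcineurin through cyclophilins and is toxic to kidney tubules. At 6 h the log2 fold changes under tunicamycin lay between 0.03 for Hsp90ab1 and 0.13 for Hspa1b, and at 24 h between -0.15 for Hsp90aa1 and 0.16 for Hspa1a. Under cyclosporin A they lay between -0.33 for Hspa1b and -0.08 for Hsp90ab1 at 6 h, and between -0.15 for Hsp90aa1 and 0.11 for Hspa1a at 24 h. edgeR called 0% of all genes in 3 of these comparisons and 0.97% higher and 0.408% lower for tunicamycin at 24 h. At an unadjusted p under 0.05, edgeR called 0 members for either drug at 6 h and 1 for each at 24 h, Hsp90aa1 both times (chosen for mention after its values were seen). Over all genes that threshold called 1.7% for tunicamycin and 4.44% for cyclosporin A at 6 h, and 12.9% and 6.56% at 24 h. DESeq2 also called 0 members in all 4 comparisons.

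The intervals bound what could have been seen. For Hspa1a, 2 SE on either side reached from -0.33 to 0.58 under tunicamycin at 6 h and from -0.14 to 0.46 at 24 h. Hspa1a was at 2235.5, 884.9 and 1131.9 CPM in C57BL/6J and 382.3, 457.7 and 360.6 CPM in DBA/2J under tunicamycin at 6 h. It was at 601.7, 349.5 and 577.9 CPM and at 455.7, 584.7 and 448.4 CPM at 24 h. In each case the treated libraries of a strain overlapped its controls for Hspa1a. This was not so for every gene. In DBA/2J Hspb1 lay higher at 6 h, at 173.4 to 224.4 CPM against 148 to 166.7 CPM. Lower in DBA/2J at 24 h were Hsp90aa1, at 931 to 967.4 against 989.7 to 1129.1 CPM, and Hsp90ab1, at 2207.4 to 2290.5 against 2325.0 to 2485.5 CPM. No interaction with strain was called for any of the 10 genes under either drug.

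The wider chaperone network was described with lists of co-chaperones and of chaperones in other compartments. The endoplasmic reticulum chaperones, a separate arm of protein folding, included Hspa5, which encodes BiP. All 7 of that list rose under tunicamycin at 24 h, against 0.97% of all genes, with a median log2 fold change of 0.59, and Hspa5 rose by 0.39 ± 0.09 (edgeR adjusted p = 0.0439). Cryab, a small heat shock protein gene of the lens and muscle that kidney also expresses, fell by 0.53 (edgeR adjusted p = 0.00317) and was the 1 gene called there among the 47 others listed.

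Under normoxia-hyperoxia against 24 h controls the lists went both ways, against 34.1% of all genes called lower and the same share called higher. The 10 heat shock genes all rose. All 7 endoplasmic reticulum chaperones fell with a median of -1.86, and all 8 subunits of TRiC, a cytosolic ring that folds actin and tubulin, fell with a median of -0.69. Hspa5 fell by 1.60 (edgeR adjusted p = 2.02e-08), and the largest decreases in the lists were those of Pdia4 at -2.35, Sdf2l1 at -2.27 and Hyou1 at -2.01, all endoplasmic reticulum proteins. The largest increases were those of Dnaja1, another HSP40, at 1.80, Hspa1l, an HSP70 relative, at 1.73 and Bag3, a partner that links HSP70 to autophagy and small heat shock proteins, at 1.71. In C57BL/6J Bag3 went from 167.3 ± 2.18 to 612.1 ± 183 CPM, and in DBA/2J from 174.9 ± 4.41 to 404 ± 45.4 CPM (SD, n = 3). Of the 14 HSP70 co-chaperones and relatives 6 rose and 6 fell, and of the 11 HSP90 co-chaperones 6 rose and 4 fell. Of the 9 mitochondrial chaperones and proteases 4 rose and 5 fell, and of the 3 other small heat shock proteins 1 rose.

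Under normoxia-hyperoxia against normoxia, 11 of the 14 HSP70 co-chaperones and relatives and 9 of the 11 HSP90 co-chaperones rose, against 37% of all genes called higher, and 2 of each list fell. Bag3 rose by 3.73 ± 0.12 and Cryab by 3.70 ± 0.24, with edgeR adjusted p of 4.31e-12 and 8.62e-08. Hspa1l was too low under normoxia for its fold change to be read, at 0.232 ± 0.164 CPM in C57BL/6J slices and 0.166 ± 0.148 CPM in DBA/2J slices, and stood at 6.91 ± 4.4 and 4.25 ± 1.41 CPM after hyperoxia (SD, n = 3). Hspa5 rose by 1.74 (edgeR adjusted p = 1.29e-08), as did 4 of 7 endoplasmic reticulum chaperones in all, while 2 fell. In the mitochondrial list 6 of 9 fell and 1 rose, against 36.5% of all genes called lower, with Clpx at -1.06 and Clpp at -1.02, subunits of a protease of the matrix, and in the HSP70 list Stub1, a ubiquitin ligase, at -0.76.

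Under normoxia against 24 h controls the lists mostly fell with the 10 genes. Of all genes 39.7% were called lower and 42.4% higher. In the HSP70 list 10 of 14 fell and 3 rose, in the HSP90 list 8 of 11 fell and 2 rose, and all 8 TRiC subunits and all 7 endoplasmic reticulum chaperones fell. Hspa5 fell by 3.33, Sdf2l1 by 3.27, Cryab by 3.81 and Bag3 by 2.01 on the log2 scale, with Bag3 at an edgeR adjusted p of 9.19e-15. In the mitochondrial list 4 rose and 4 fell, and the largest increases in any list were those of Clpx at 1.35, Trap1, a mitochondrial HSP90, at 1.17 and Hscb, a co-chaperone for iron-sulfur clusters, at 0.97. Against the 6 h controls the largest decreases in any list were those of Hspa5 at -2.72, Bag3 at -2.48 and Dnajb4, an HSP40, at -2.46, and the largest increases were Clpp at 0.43, Stub1 at 0.41 and Clpx at 0.36.

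With time in control culture the lists differed in their counts, and the difference between lists was not tested. All 7 endoplasmic reticulum chaperones rose, with a median of 1.21, and all 8 TRiC subunits rose, with a median of 0.83, against 34.7% of all genes called higher and a median of -0.68 for the 10 genes. Of the HSP70 co-chaperones and relatives 8 rose and 4 fell, and of the HSP90 co-chaperones 8 rose and 3 fell. Of the mitochondrial list 3 rose and 5 fell, with a median of -0.23. Cryab rose by 2.14, Sdf2l1 by 1.89 and Pdia4 by 1.48, and Hspa5 rose by 0.65 (edgeR adjusted p = 0.000304). The largest decreases were those of Dnaja1 at -1.31, Dnajb4 at -0.98 and Clpx at -0.95, and Bag3 fell by 0.43 (edgeR adjusted p = 0.000142).

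The transcripts of the regulators were also measured. Hsf1, the main heat shock factor, was in C57BL/6J at 29.7 ± 1.44 CPM in 6 h controls, 43.5 ± 3.08 in 24 h controls, 27.7 ± 1.07 under normoxia and 33.25 ± 1.83 under normoxia-hyperoxia (SD, n = 3). In DBA/2J the levels were 35.3 ± 1.47, 44.6 ± 2.18, 32.4 ± 3.57 and 36.3 ± 4.58 CPM. It differed from 24 h controls by -0.28 under normoxia and -0.17 under normoxia-hyperoxia, and rose by 0.23 between 6 h and 24 h, with edgeR adjusted p of 0.000451, 0.0355 and 0.00333. Between normoxia-hyperoxia and normoxia its log2 fold change was 0.13 (edgeR adjusted p = 0.12). Hsf2, a second factor of the family, was not called in any of these comparisons, with log2 fold changes between -0.16 and 0.12. Levels of these transcripts do not measure the active state of the proteins.

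**Figure D5:**
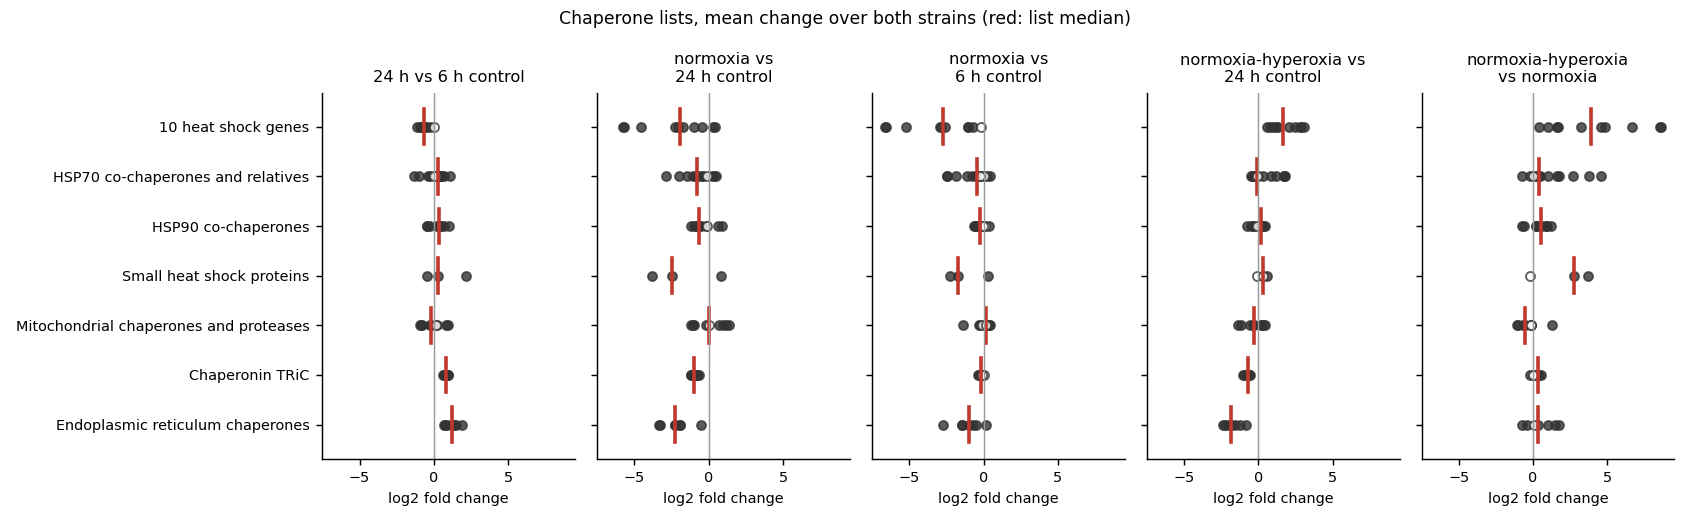
Log2 fold changes, averaged over the strains, of the 10 heat shock genes and of 6 lists of other chaperones in 5 comparisons, with filled points for an edgeR adjusted p under 0.05 and a red line at each list's median. For normoxia-hyperoxia against 24 h controls the 10 heat shock genes lie to the right of 0 with a median of 1.69, and the endoplasmic reticulum chaperones to the left with a median of -1.86.

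The members also differed in how closely their group means followed each other. Over the 16 group means of log2 CPM, Pearson's r between Hspa1a and Hspb1 was 0.996 and between Hspa1a and Hsp90aa1 0.979. Between Hspa1a and Dnajb1 it was 0.895, between Hspa1a and Hspa8 0.809, and between Hspa1a and Hspd1 0.213. The mitochondrial pair Hspd1 and Hspe1 followed each other at 0.907. The groups share libraries' depth and composition, and these values are descriptions only. Among 18709 other genes, those whose group means were most like those of Dnajb1 were Arl6ip5 (r = 0.993), Hesx1 (0.979), Yap1 (0.977), Rcan1 (0.975) and Irf1 (0.971). Among those most like Hspd1 were its pseudogene Hspd1-ps3 (0.928), which can share reads with it, BC049715 (0.894), Ip6k2 (0.890) and Lrp6 (0.885).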

How the data were processed

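The authors deposited 1 table of whole-number counts, with a column for each of 48 libraries, without normalization. Per the labels' protocols, RNA extracted with a Qiagen midi kit was made into libraries with an Illumina stranded mRNA ligation kit. Per the submitters' processing notes, the tools were bcl2fastq 2.20.0, FastQC 0.11.8, STAR 2.7.9a and featureCounts 1.5.1, with build GRCm38. Their settings, the strand option and the annotation release are not given in the sources used here. Symbols matched 55141 of 55487 identifiers. Coordinates and exon lengths are from GENCODE M21.

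Groups came from the labels. Each comparison was fitted on its own 12 libraries (2 strains, 2 conditions) in edgeR 4.0.16 under R 4.3.3, with TMM factors, edgeR's default filter on low counts and robust quasi-likelihood F tests with 8 residual degrees of freedom. Benjamini-Hochberg adjustment ran over all genes of a contrast, with no adjustment across the 22 contrasts. CPM uses library totals, so its ratios can differ from the fitted fold changes. Each SE is the log2 fold change over the square root of its F value. The fit was tested on simulated data for normoxia against 24 h controls. It recovered 100% of 50 genes at each true log2 change of -2, -1, 1 and 2 among 16634 genes, with 15 false calls. The simulation gave all genes the same spread and both strains the same means, and few genes changed. In the real comparison 42.4% of genes were called higher and 39.7% lower, so the simulation does not show how the calls hold there.

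The 10 genes and all lists were chosen with earlier results of these data known. The text names all 10 genes, Hsf1, Hsf2, Bag3 and Hspa5, up to 3 list genes with the largest rise and fall per comparison, and the 5 genes most like Dnajb1 and Hspd1, of which 1 is not reported here. Alternatives were RLE factors, library totals, no filter, DESeq2 1.42.0, a replicate block, 1 fit of all 48 libraries, genes of the mitochondrial genome left out, Hspa1a and Hspa1b summed, and each library left out.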

Additional observations from a re-analysis of the deposited data

Results flagged for a closer look

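For 17 results the effect of a condition differed between the strains by edgeR's interaction test (DBA/2J effect minus C57BL/6J effect, on the log2 scale, Benjamini-Hochberg adjusted p under 0.05). No cause was tested for any of them, and most of the calls were lost in some alternatives.

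Between 24 h and 6 h controls the differences were 1.68 for Hspa1b, 0.92 for Hsp90aa1, 1.73 for Hspb1, 1.22 for Hsph1 and 1.34 for Dnajb1, all with less decrease or more increase in DBA/2J. Between normoxia and 24 h controls they were -0.43 for Dnajb1 and 0.45 for Hspd1. Between normoxia and 6 h controls they were 1.18 for Hsp90aa1, 1.49 for Hspb1, 1.56 for Hsph1 and 0.99 for Hspd1. Between normoxia-hyperoxia and 24 h controls the difference was -0.92 for Dnajb1. Between normoxia-hyperoxia and normoxia they were -0.74 for Hsp90aa1, -0.66 for Hsp90ab1, -1.02 for Hsph1, -1.55 for Hspd1 and -1.04 for Hspe1. The shares of all genes called in the same direction were 0.419% between 24 h and 6 h controls and 1.86% between normoxia and 6 h controls. Between normoxia and 24 h controls they were 6.88% lower and 10.1% higher, near the 1 of 10 members called each way. They were 0.481% between normoxia-hyperoxia and 24 h controls and 11% between normoxia-hyperoxia and normoxia. Comparisons with the same controls share libraries, so the values of the members do not bear on one another independently.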

How the results depend on the processing

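Averaged over the strains, the counts of members called stayed within 1.5 times their values in every alternative, and the drug comparisons stayed at 0 throughout. Between 24 h and 6 h controls 5 members were called in the strain interaction, against 2 with library totals, 3 in 1 fit of all 48 libraries, 7 without a filter on low counts, 7 by DESeq2 and 1 to 6 when each library was left out. Between normoxia and 24 h controls the 2 interaction calls became 1 with RLE factors, with library totals or without mitochondrial genome genes, 5 without a filter, 3 by DESeq2, 0 in the fit of all libraries and 0 to 2 with each library left out. Between normoxia and 6 h controls the 4 interaction calls became 9 without a filter and 6 by DESeq2. Between normoxia-hyperoxia and 24 h controls the 1 interaction call became 6 without a filter, 2 by DESeq2, 0 in the fit of all libraries and 0 to 2 with each library left out. Between normoxia-hyperoxia and normoxia the 5 interaction calls became 2 with library totals, 2 in the fit of all libraries and 3 to 5 with each library left out. For the strains within 24 h controls the 1 call became 6 without a filter, 0 in the fit of all libraries and 0 to 5 with each library left out. Within normoxia it was 3 to 5 against 5, and within normoxia-hyperoxia 6 to 10 against 9. Hsp90ab1 between 24 h and 6 h controls, at 0.007011 (log2), was -0.008709 without a filter and -0.04593 to 0.08251 with each library left out, with no call. The cause of these shifts was not tested. Fits with a library left out also have fewer samples.

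The labels reuse the replicate numbers across groups, but in no comparison did all 6 same-numbered pairs correlate above 0.1, so the numbers were not taken as pairs. Of the 6 pairs, 5 passed 0.1 for tunicamycin at 6 h and for normoxia against 6 h controls, with means of 0.164 and 0.179. It was 4 for tunicamycin at 24 h and for normoxia-hyperoxia against 24 h controls and against normoxia. The main fits ignore any such matching. With the replicate number as a block (4 residual degrees of freedom) the calls between normoxia-hyperoxia and 24 h controls in the strain interaction went from 1 to 4 and those between normoxia and 6 h controls from 4 to 6, and the other counts were as without it. Between 24 h and 6 h controls the block ended the call of Hsp90aa1 in the strain interaction, and another member gained one. A block within each strain absorbs the strain differences, which have no such value. The effect of depth on the calls was not tested. The lowest count of a member was 75.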
